A study of Rattus norvegicus with 18 samples.

Results

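The time dependence of the response of rat hepatocytes to 30 µM EMD was measured with 12 of the 18 arrays of the series, 3 in each of 4 groups. The quantity reported is the time interaction of each probe set, which is the difference between EMD and DMSO cultures at 72 h minus the same difference at 24 h. It was computed for all 31042 probe sets that are not array controls. Most genes named below were picked from them by their interaction or response values. A positive interaction means that the EMD minus DMSO difference lay higher at 72 h than at 24 h. The 4 groups were 30 µM EMD for 72 h, 0.1% DMSO for 72 h, 30 µM EMD for 24 h and 0.1% DMSO for 24 h. All cultures were primary hepatocytes, the parenchymal cells of liver, isolated from Wistar rats, and RNA was hybridised to an Affymetrix rat genome array. They shared an attachment period of 24 h before treatment and an incubation medium with gentamicin, insulin and hydrocortisone, so the vehicle cultures also received both hormones. EMD is described by the study as a dual agonist of PPARα and PPARγ. Cultures with 100 µM EMD at 72 h and 24 h, also 3 arrays each, enter the shared fit and a comparison of the doses. Primary hepatocytes in culture have no blood flow and no other organ to answer to, and their expression of liver genes is known to drift with time in the dish, which the vehicle cultures of both times record.

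PPARα is a nuclear receptor that, once a fatty acid or a drug has bound to it, pairs with RXR on DNA and turns on genes for taking up, activating and burning fatty acids. Its targets in rodent liver include the peroxisomal and mitochondrial oxidation enzymes, the CYP4A hydroxylases and the kinase Pdk4, and its activation is also known to lower acute phase and other inflammatory genes. PPARγ acts through the same kind of DNA element and is best known from fat cells, where it drives genes of lipid storage.

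The arrays of a group correlated at 0.9881 to 0.9958 over the probe sets, and array medians lay between 5.05 and 5.11 on the log2 scale. Values ran from 2.39 to 14.77. Changes are log2 differences between group means ± the standard error (SE) of the fit, so that 1 unit is a 2-fold change, and a gene was called where its adjusted p in limma's moderated test lay under 0.05. The interaction had a median SE of 0.164, and the number of arrays limits this precision. Its median over all probe sets was 0.03. Albumin (Alb), made by hepatocytes, was at 14.76 in EMD cultures and 14.75 in DMSO cultures at 72 h, against 14.69 and 14.65 in the same order at 24 h. Of the endothelial marker Pecam1, the leukocyte marker Ptprc and the fibroblast gene Col1a1, group means lay between 3.29 and 4.38, near the bottom of the scale. Other markers of endothelial and stellate cells were higher. Eng, the highest endothelial marker, was at 6.69 in EMD and 5.38 in DMSO cultures at 72 h, against 5.97 and 5.47 at 24 h. The stellate cell marker Acta2 was at 5.69 and 6.22 at 72 h, against 6.23 and 6.49 at 24 h, in the same order. Some macrophage and cholangiocyte markers were far higher. The highest macrophage marker was Cd14 in EMD (8.96) and Lyz2 in DMSO cultures (9.9) at 72 h, against Lyz2 in both at 24 h (9.49 and 10.71). The cholangiocyte marker Epcam was at 9.36 and 9.57 at 72 h, against 8.67 and 7.75 at 24 h, in the same order. RNA was measured from whole cultures, so fewer cells of a type and less RNA per cell cannot be told apart.

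In all, 292 probe sets were called in the interaction (0.941% of those tested), of which 128 were higher (0.412%) and 164 lower (0.528%), and 3923 had an unadjusted p under 0.05. The interaction reached 2-fold in 61 of the higher and 77 of the lower. The fit did not pair arrays, as the labels do not tie a replicate number to an animal. With the replicate number as a block 924 were called, so a probe set without a call here may be called in such a fit. EMD cultures differed from DMSO cultures in 5309 probe sets at 72 h (17.1%) and in 1664 at 24 h (5.36%). Of these, 1319 were called at both times, 1314 of them in the same direction, and 73 of the 1319 were called in the interaction. A further 3990 were called at 72 h alone, of which 204 were called in the interaction. Of the 292, 243 carried 1 gene symbol, for 219 genes, and 31 had all 4 group means under the median of all values (5.08), near the background of the array. Leaving out 1 array moved the count by over 1.5 times for 8 of the 12: it was 123 without DMSO 72 h replicate 2 and also without EMD 72 h replicate 2, 129 without EMD 24 h replicate 3, 151 without EMD 24 h replicate 1, 152 without DMSO 24 h replicate 3 and also without EMD 72 h replicate 3, 194 without DMSO 24 h replicate 2 and 475 without DMSO 72 h replicate 3.

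**Figure D1:**
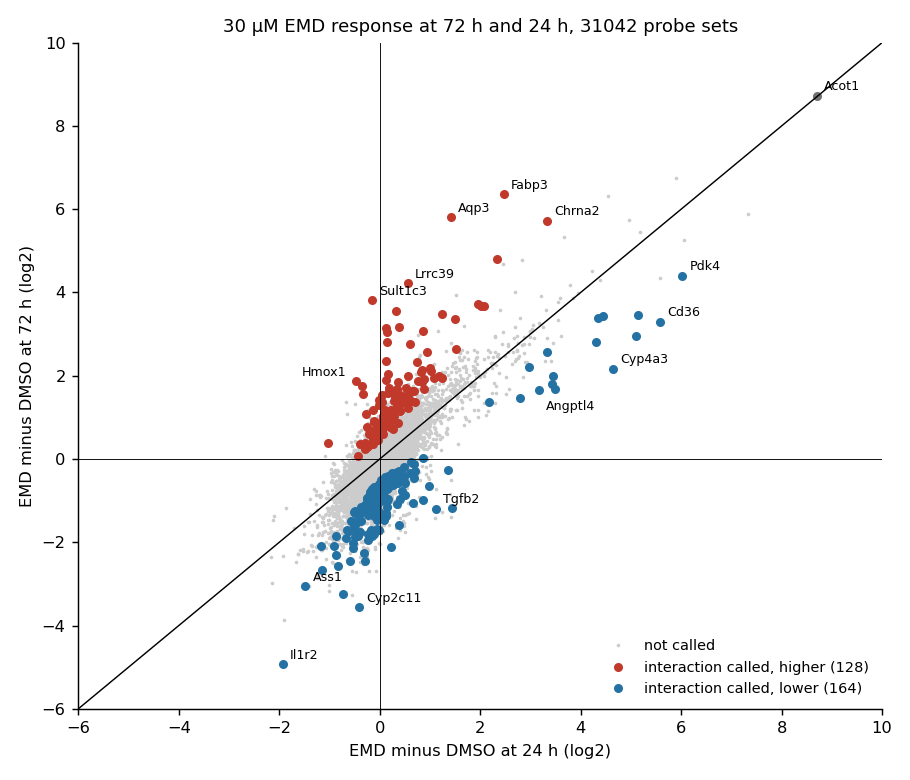
The EMD minus DMSO difference (log2) at 72 h (y axis) against that at 24 h (x axis) for the 31042 probe sets, with those called in the time interaction in colour and the line of equal response drawn. Of the called probe sets, 128 lie above the line (Fabp3 at 6.36 and 2.47) and 164 below it (Cd36 at 3.30 and 5.59), while Acot1 (8.72 and 8.70) lies beside it.

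The same interaction can arise in either arm, so the change between 72 h and 24 h was also read in each. Between the times 4221 probe sets were called in EMD cultures (13.6%) and 6738 in DMSO cultures (21.7%). Of the 128 with a higher interaction, 77 were higher at 72 h than at 24 h in EMD cultures with no call in DMSO cultures, and 30 were lower at 72 h in DMSO cultures with no call in EMD cultures. Of the 164 with a lower interaction, 91 were higher at 72 h in DMSO cultures with no call in EMD cultures, and 33 were lower at 72 h in EMD cultures with no call in DMSO cultures. Read as response, 90 of the 128 rose with EMD at 72 h alone and 34 at both times, while 114 of the 164 fell with EMD at 72 h alone, 18 fell at both times and 16 rose at both times, by less at 72 h.

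**Figure D2:**
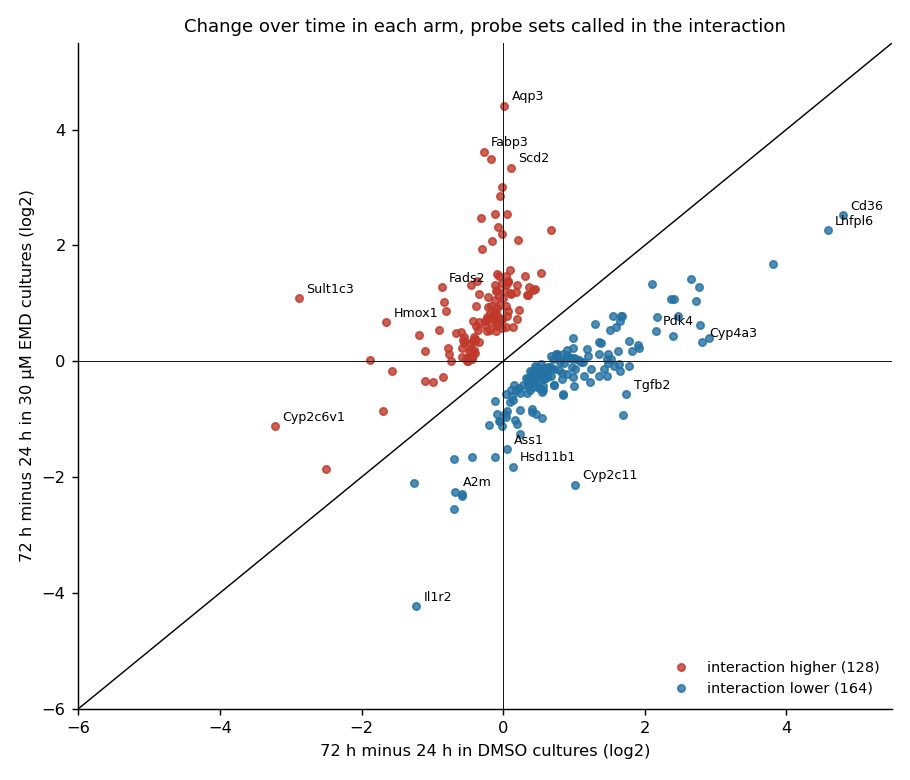
The 72 h minus 24 h change (log2) in 30 µM EMD cultures (y axis) against that in DMSO cultures (x axis) for the 292 probe sets called in the interaction, each point a probe set. Aqp3 lay at 4.41 in EMD cultures and 0.02 in DMSO cultures, Sult1c3 lay at 1.09 and -2.88, and Cd36 was higher at 72 h in both arms (2.52 and 4.80).

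PPAR and RXR bind repeats of the hexamer AGGTCA in the same direction with 1 base between them, so the promoter windows of RefSeq (GRCr8, 250 bases before to 50 after each gene's start) were searched on both strands for AGGTCANAGGTCA with up to 2 mismatches in its 12 fixed letters. Counted by gene, any window with such a match was found for 1116 of 27457 genes (4.06%) and for 372 of the 11700 on the array that have a window (3.18%). The same held for 6 of 70 genes with a higher interaction (8.57%), 4 of 108 with a lower one (3.7%) and 31 of 489 that rose with EMD at both times (6.34%). Of the 108, it held for 2 of 18 that rose at 24 h (11.1%). Of the named rises of like size at both times, it held for 1 of 8 (12.5%). Several of these counts are small, so the shares do not rank the groups. These are descriptions, and no match says only that these letters are not in this window. Of the named genes, 4 had a match, and their windows are given 5′ to 3′ on the gene's strand to show the letters beside genes that differ in their time course, with the match in capitals. Ucp3, whose rise came at 72 h alone, has its match 57 bases before the start (chr1:164227660-164227959, plus strand). Crat, which rose at both times with no called interaction, has it at 223 bases (chr3:34087050-34087349, minus strand). Slc2a2 fell at both times and by more at 72 h (match at 146 bases; chr2:113540120-113540419, plus strand), and Itih4 fell at 72 h alone (match at 152 bases; chr16:6086735-6087034, plus strand).
Ucp3: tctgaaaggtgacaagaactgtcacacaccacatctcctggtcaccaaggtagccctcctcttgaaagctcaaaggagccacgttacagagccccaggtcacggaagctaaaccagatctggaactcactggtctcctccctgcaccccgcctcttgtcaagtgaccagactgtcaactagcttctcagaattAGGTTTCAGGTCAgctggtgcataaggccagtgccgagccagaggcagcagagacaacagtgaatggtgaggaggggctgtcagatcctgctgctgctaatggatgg
Crat: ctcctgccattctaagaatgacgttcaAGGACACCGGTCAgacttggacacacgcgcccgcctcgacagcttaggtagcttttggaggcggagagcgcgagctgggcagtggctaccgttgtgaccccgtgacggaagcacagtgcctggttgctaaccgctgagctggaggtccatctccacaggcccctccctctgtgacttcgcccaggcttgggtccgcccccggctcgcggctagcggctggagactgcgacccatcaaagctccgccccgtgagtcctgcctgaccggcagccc
Slc2a2: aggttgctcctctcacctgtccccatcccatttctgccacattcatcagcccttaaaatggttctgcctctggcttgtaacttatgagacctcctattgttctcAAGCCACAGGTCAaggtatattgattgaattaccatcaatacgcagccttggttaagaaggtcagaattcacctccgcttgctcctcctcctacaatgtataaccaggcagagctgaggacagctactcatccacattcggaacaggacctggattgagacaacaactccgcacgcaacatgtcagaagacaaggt
Itih4: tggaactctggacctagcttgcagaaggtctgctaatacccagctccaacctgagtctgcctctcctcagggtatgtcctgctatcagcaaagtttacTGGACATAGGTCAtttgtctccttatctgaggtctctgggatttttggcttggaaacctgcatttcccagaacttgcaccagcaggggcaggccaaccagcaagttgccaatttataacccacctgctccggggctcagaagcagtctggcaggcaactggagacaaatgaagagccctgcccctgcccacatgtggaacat

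Among the largest positive interactions were genes that were low in vehicle cultures at both times and higher at 72 h than at 24 h in EMD cultures. Aqp3, an aquaglyceroporin that lets glycerol and water through the membrane, had values of 9.75, 10.52 and 10.31 in EMD cultures and 4.13, 4.67 and 4.35 in DMSO cultures at 72 h, against 4.80, 6.73 and 5.81 in EMD cultures and 4.39, 4.15 and 4.56 in DMSO cultures at 24 h. All EMD arrays at 72 h lay far above the other 9, and the EMD arrays at 24 h lay above all vehicle arrays, a difference that was not called. The interaction was 4.39 ± 0.59 (adjusted p = 0.0019), with EMD minus DMSO at 5.81 ± 0.41 at 72 h (adjusted p = 4.1e-08), against 1.41 ± 0.41 at 24 h (adjusted p = 0.059). Fabp3, a carrier of fatty acids in the cytosol of heart and muscle cells, read 11.55, 11.21 and 10.57 in EMD cultures and 4.89, 4.84 and 4.51 in DMSO cultures at 72 h, against 7.46, 7.71 and 7.30 in EMD cultures and 4.89, 5.08 and 5.08 in DMSO cultures at 24 h. It was already higher with EMD at 24 h, without overlap, and higher again at 72 h, while the vehicle arrays stayed between 4.51 and 5.08. Its interaction was 3.89 ± 0.44 (adjusted p = 0.00053), from a rise of 6.36 ± 0.31 at 72 h (adjusted p = 3.5e-10), against 2.47 ± 0.31 at 24 h (adjusted p = 5.6e-05). Chrna2, a subunit of the nicotinic acetylcholine receptor, rose at both times in the same manner and had an interaction of 2.40 ± 0.43 (adjusted p = 0.014), with differences of 5.72 at 72 h and 3.32 at 24 h.

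Several other genes of this kind showed no call at 24 h. Ucp3, an uncoupling protein of the mitochondrial inner membrane best known from muscle, had values of 6.70, 7.15 and 6.92 in EMD cultures and 5.08, 5.10 and 4.93 in DMSO cultures at 72 h, against 5.52, 5.58 and 5.52 in EMD cultures and 5.36, 5.58 and 5.29 in DMSO cultures at 24 h. The EMD arrays at 72 h were above all others, the groups at 24 h overlapped, and the DMSO arrays were a little lower at 72 h than at 24 h. Its interaction was 1.76 ± 0.16 (adjusted p = 4.4e-05), and a second probe set gave 1.50 (adjusted p = 0.00026). Krt23, a type I keratin, had the smallest adjusted p among probe sets with a symbol, with values of 6.08, 6.38 and 6.06 in EMD cultures and 3.10, 3.24 and 3.74 in DMSO cultures at 72 h, against 3.58, 3.52 and 3.80 in EMD cultures and 3.35, 3.67 and 3.42 in DMSO cultures at 24 h. Here too only the EMD arrays at 72 h stood apart, with an interaction of 2.66 ± 0.23 (adjusted p = 3.5e-05). Lrrc39, a leucine-rich repeat protein known from heart and skeletal muscle, had an interaction of 3.66 ± 0.40 (adjusted p = 0.00053), with differences of 4.23 at 72 h and 0.56 at 24 h, and its other probe set gave 2.23 (adjusted p = 0.0012).

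Lpl, the lipase that frees fatty acids from circulating lipoproteins and a known PPAR target, stood at 5.19, 4.65 and 4.70 in EMD cultures and 3.57, 3.78 and 3.69 in DMSO cultures at 72 h, against 3.47, 3.43 and 3.54 in EMD cultures and 3.68, 3.60 and 3.55 in DMSO cultures at 24 h. Its 3 EMD arrays at 72 h were the highest of the 12, all still low on the scale, and the interaction was 1.30 ± 0.16 (adjusted p = 0.0012). Igdcc4, an immunoglobulin superfamily member, had 2.78 ± 0.38 (adjusted p = 0.0027), with differences of 3.16 at 72 h and 0.39 at 24 h, but its other probe set gave 0.25 (adjusted p = 0.38). Cbr3, a carbonyl reductase, had 3.03 ± 0.67 (adjusted p = 0.04), with differences of 3.14 at 72 h and 0.12 at 24 h. For Pkhd1l1, related to fibrocystin, the interaction was 2.21 ± 0.41 (adjusted p = 0.016), with differences of 3.08 at 72 h and 0.87 at 24 h. Serpina7, the thyroxine-binding globulin, had 1.49 ± 0.28 (adjusted p = 0.018), with differences of 1.84 at 72 h and 0.36 at 24 h. The calls were lost for Cbr3 without any 1 of 11 of the 12 arrays (adjusted p = 0.051 to 0.11), after cyclic loess (0.054) and with trend and robust moderation (0.094), for Pkhd1l1 without DMSO 72 h replicate 2 (adjusted p = 0.05) and for Serpina7 without EMD 72 h replicate 2 or EMD 72 h replicate 3 (adjusted p = 0.055 to 0.059). Trend and robust moderation are other settings of limma's variance model, and cyclic loess is a further normalization between arrays.

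**Figure D3:**
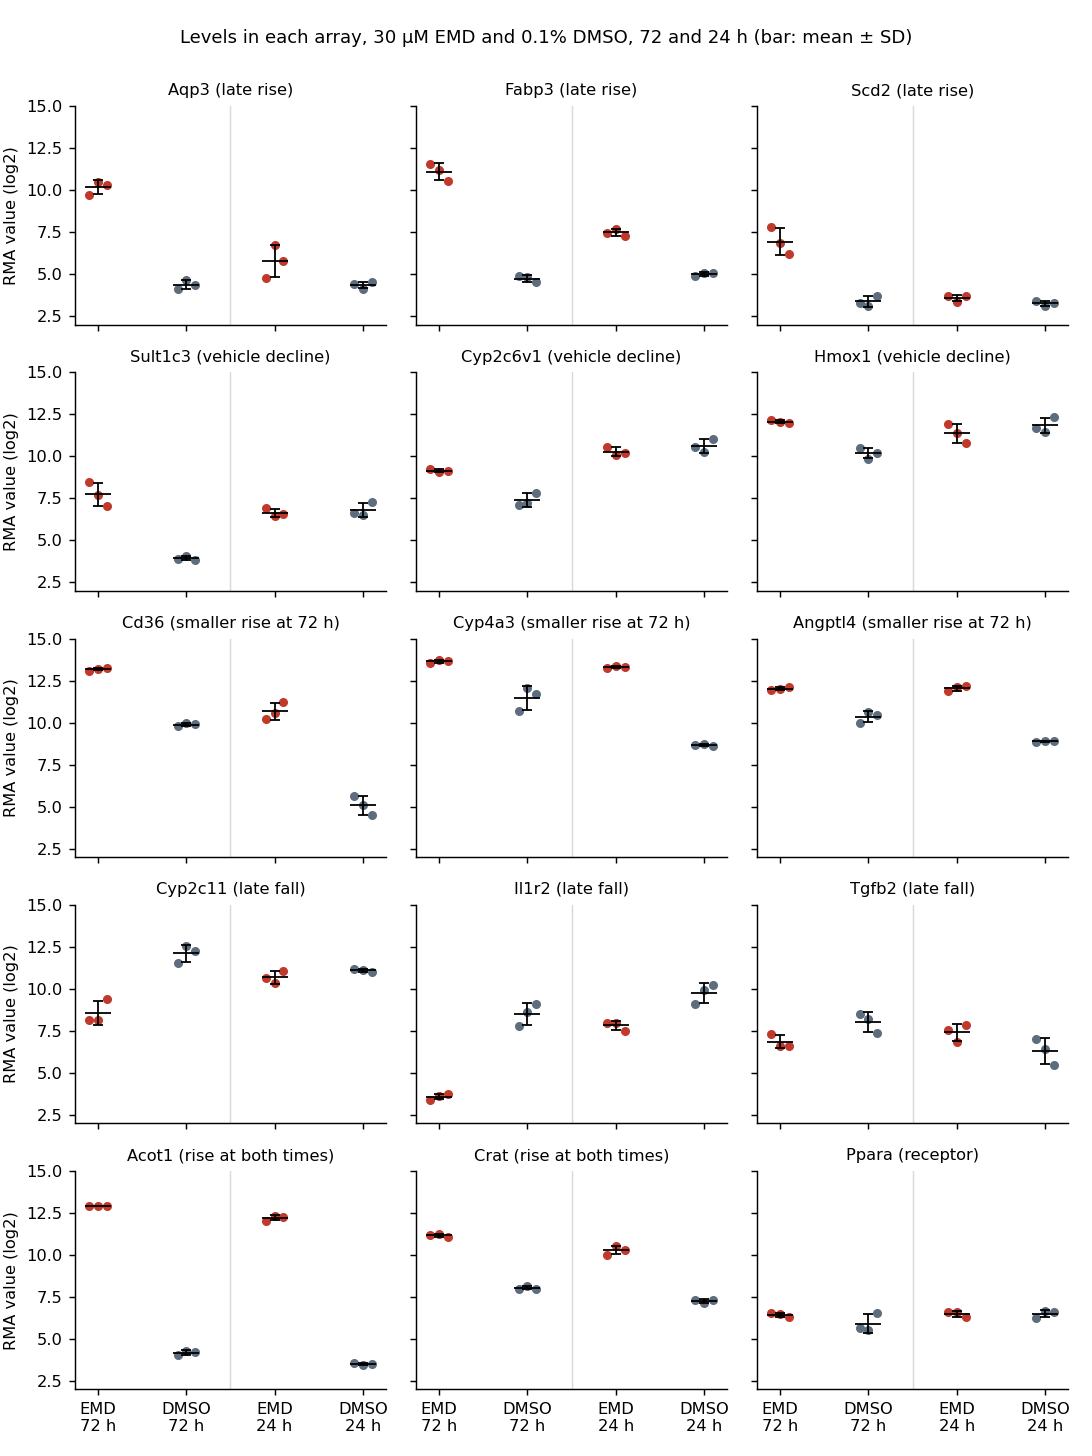
RMA values (log2, y axis) of 15 genes in each of the 12 arrays, EMD in red and DMSO in grey at 72 h and 24 h, with the mean ± SD of 3 arrays as bars. Aqp3, Fabp3 and Scd2 stand high in the EMD arrays at 72 h, Sult1c3 and Hmox1 are low in the DMSO arrays at 72 h, Cd36, Cyp4a3 and Angptl4 are higher in DMSO arrays at 72 h than at 24 h, and Acot1 has EMD minus DMSO differences of 8.72 at 72 h and 8.70 at 24 h.

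Genes that make fatty acids and triglycerides were the list with the highest median interaction, 0.58 over 26 measured genes, against 0.01 over all 14217 genes. Of the 26, 4 were called higher and 0 lower (69 and 116 of all genes), and 13 rose and 0 fell at 72 h (50.0% and 0%), against 6 that rose and 2 that fell at 24 h (23.1% and 7.69%). Over all genes 1342 rose (9.44%) and 1848 fell (13%) at 72 h, against 621 (4.37%) and 406 (2.86%) at 24 h, so calls were more frequent at 72 h in both directions. Scd2, a stearoyl-CoA desaturase, had values of 7.79, 6.85 and 6.18 in EMD cultures and 3.29, 3.13 and 3.73 in DMSO cultures at 72 h, against 3.73, 3.37 and 3.68 in EMD cultures and 3.39, 3.10 and 3.32 in DMSO cultures at 24 h. It left the floor of the scale in the EMD arrays at 72 h alone, with an interaction of 3.23 ± 0.57 (adjusted p = 0.011), while its 3 other probe sets gave 0.87, 0.38 and 0.18, none of them called. Scd, the main desaturase of liver, read 13.91, 13.94 and 13.84 in EMD cultures and 12.33, 11.86 and 11.23 in DMSO cultures at 72 h, against 13.75, 13.76 and 13.67 in EMD cultures and 12.92, 12.94 and 12.86 in DMSO cultures at 24 h. It was near the top of the scale in both EMD groups, and the vehicle arrays were lower at 72 h than at 24 h. The rise was 2.09 ± 0.17 at 72 h (adjusted p = 2.2e-07), against 0.82 ± 0.17 at 24 h (adjusted p = 0.0068) and the interaction 1.27 ± 0.24 (adjusted p = 0.019).

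Fads2, the Δ6 desaturase of polyunsaturated fatty acids, had an interaction of 2.14 ± 0.44 (adjusted p = 0.028), with differences of 2.75 at 72 h and 0.61 at 24 h. Gpam, the mitochondrial enzyme that adds the first acyl chain to glycerol phosphate, had 0.99 ± 0.21 (adjusted p = 0.03), with differences of 1.55 at 72 h and 0.56 at 24 h, and its other probe set gave 1.09 (adjusted p = 0.013). The calls were lost for Scd without EMD 72 h replicate 2 or EMD 24 h replicate 3 (adjusted p = 0.054 to 0.059) and in a fit on the 12 arrays compared (0.061), for Fads2 without any 1 of 6 of the 12 arrays (adjusted p = 0.06 to 0.083), in a fit on the 12 arrays compared (0.067) and with trend and robust moderation (0.055) and for Gpam without any 1 of 8 of the 12 arrays (adjusted p = 0.062 to 0.096) and in a fit on the 12 arrays compared (0.066). The 19 measured genes of cholesterol synthesis showed no called interaction, with a median of -0.01, and 6 rose at 72 h (31.6%), against 3 at 24 h (15.8%), where 9.44% and 4.37% of all genes did. Lipid droplet and lipolysis genes had 0 of 19 called and a median of 0.21, with 12 that rose at 72 h (63.2%) and 10 at 24 h (52.6%), against the same shares of all genes.

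In a second pattern the vehicle cultures lost a transcript between the times and the EMD cultures did so less, not at all, or gained it. Sult1c3, a sulfotransferase, had values of 8.46, 7.72 and 7.05 in EMD cultures and 3.87, 4.07 and 3.86 in DMSO cultures at 72 h, against 6.93, 6.45 and 6.58 in EMD cultures and 6.65, 6.49 and 7.30 in DMSO cultures at 24 h. The groups overlapped at 24 h, and at 72 h the DMSO arrays sat near 4 while all EMD arrays were above 7. Its change over time was 1.09 ± 0.44 in EMD cultures (adjusted p = 0.12), against -2.88 ± 0.44 in DMSO cultures (adjusted p = 0.00026), and the interaction was 3.97 ± 0.62 (adjusted p = 0.0059). Hmox1, the heme oxygenase that breaks down heme and a target of the oxidative stress factor NRF2, read 12.15, 12.04 and 11.98 in EMD cultures and 10.49, 9.87 and 10.22 in DMSO cultures at 72 h, against 11.94, 11.40 and 10.80 in EMD cultures and 11.68, 11.48 and 12.37 in DMSO cultures at 24 h. The DMSO arrays at 72 h were the lowest of the 12, and the interaction was 2.33 ± 0.42 (adjusted p = 0.014), a call lost without DMSO 72 h replicate 2 (adjusted p = 0.05). The 25 other measured NRF2 targets and antioxidant genes had no called interaction, and the list's median was 0.11.

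Cyp2c6v1, a drug-metabolising cytochrome P450, changed over time by -1.12 ± 0.25 in EMD cultures (adjusted p = 0.0068), against -3.23 ± 0.25 in DMSO cultures (adjusted p = 4e-07). Values were 9.23, 9.06 and 9.16 in EMD cultures and 7.10, 7.24 and 7.85 in DMSO cultures at 72 h, against 10.57, 10.06 and 10.20 in EMD cultures and 10.56, 10.27 and 11.05 in DMSO cultures at 24 h, so that both arms were lower at 72 h and the DMSO arrays were lower than the EMD arrays without overlap. The interaction was 2.10 ± 0.36 (adjusted p = 0.01). Cyp3a23-3a1, a P450 known to be induced through the receptor PXR, had 1.44 ± 0.25 (adjusted p = 0.01), with differences of 1.99 at 72 h and 0.56 at 24 h. Of the 24 measured P450 genes of families 1 to 3, 2 were called higher and 1 lower, against 69 and 116 of all 14217 genes, with a median of 0.21. Of the 24, 8 rose (33.3%) and 3 fell (12.5%) at 72 h, against 1 and 1 at 24 h (4.17% each). Apart from the rises at 72 h, these shares lie near those of all genes (13% fell at 72 h, 4.37% rose and 2.86% fell at 24 h). Cxcl9, a chemokine induced by interferon gamma, was lower at 72 h than at 24 h in both arms, -1.87 ± 0.10 in EMD cultures (adjusted p = 2.2e-08), against -2.51 ± 0.10 in DMSO cultures (adjusted p = 3.6e-10), and its interaction was 0.64 ± 0.14 (adjusted p = 0.038). That call was lost without any 1 of 10 of the 12 arrays (adjusted p = 0.06 to 0.11) and in a fit on the 12 arrays compared (0.076), and the other probe set gave 0.45 (adjusted p = 0.12). None of the 35 measured interferon-inducible genes was called in the interaction, and their median was -0.22. Near-identical members of the Cyp2c, Cyp3a, Cyp4a, Acot and sulfotransferase families may share probes, which these values cannot separate.

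A group that includes known PPAR targets ran the other way. Its genes rose at both times, but the gap to vehicle was smaller at 72 h, and in each the vehicle arrays were higher at 72 h than at 24 h. Cd36, a membrane transporter of fatty acids, had values of 13.10, 13.20 and 13.24 in EMD cultures and 9.77, 9.95 and 9.91 in DMSO cultures at 72 h, against 10.19, 10.56 and 11.24 in EMD cultures and 5.63, 5.09 and 4.51 in DMSO cultures at 24 h. Both arms climbed, 2.52 ± 0.33 in EMD cultures (adjusted p = 8.4e-05), against 4.80 ± 0.33 in DMSO cultures (adjusted p = 9.5e-08), and the interaction was -2.28 ± 0.46 (adjusted p = 0.026). Cyp4a3, which hydroxylates the end of fatty acid chains, read 13.54, 13.73 and 13.68 in EMD cultures and 10.68, 12.06 and 11.71 in DMSO cultures at 72 h, against 13.27, 13.38 and 13.31 in EMD cultures and 8.66, 8.76 and 8.60 in DMSO cultures at 24 h. The EMD arrays differed little between the times at 13.27 to 13.73, close to the highest value of the data, 14.77, and the DMSO arrays at 72 h were above those at 24 h without overlap. The interaction was -2.48 ± 0.31 (adjusted p = 0.0012) and the rise 2.17 ± 0.22 at 72 h (adjusted p = 2.7e-06), against 4.64 ± 0.22 at 24 h (adjusted p = 2.5e-10). Cyp4a1 had an interaction of -1.69 ± 0.33 (adjusted p = 0.022), with differences of 3.46 at 72 h and 5.15 at 24 h.

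Angptl4, a secreted inhibitor of lipoprotein lipase, stood at 11.93, 11.99 and 12.12 in EMD cultures and 10.00, 10.63 and 10.46 in DMSO cultures at 72 h, against 11.89, 12.11 and 12.16 in EMD cultures and 8.85, 8.92 and 8.89 in DMSO cultures at 24 h. Its EMD arrays overlapped between the times, and its change over time was -0.04 ± 0.13 in EMD cultures (adjusted p = 0.9), against 1.48 ± 0.13 in DMSO cultures (adjusted p = 1e-06). The interaction was -1.52 ± 0.18 (adjusted p = 0.00095). Txnip, the thioredoxin-interacting protein that responds to glucose, had -1.82 ± 0.23 (adjusted p = 0.0012), with differences of 1.67 at 72 h and 3.49 at 24 h. Its change over time was -0.17 ± 0.16 in EMD cultures (adjusted p = 0.57), against 1.65 ± 0.16 in DMSO cultures (adjusted p = 3.5e-06). For Eci1, an isomerase of mitochondrial β-oxidation, the interaction was -1.44 ± 0.21 (adjusted p = 0.0032), with differences of 2.0 at 72 h and 3.44 at 24 h. Another probe set of the gene was not called at either time (0.13 at 72 h, against -0.10 at 24 h). Its group means of 4.15 to 4.73 lay under the median of all values (5.08), near the background. Acot3, a peroxisomal acyl-CoA thioesterase, had -0.76 ± 0.15 (adjusted p = 0.026), with differences of 2.58 at 72 h and 3.34 at 24 h.

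Pdk4, a kinase that inhibits pyruvate dehydrogenase and so spares glucose, differed between its probe sets. The brighter of the 2 had -1.62 ± 0.27 (adjusted p = 0.0081), with differences of 4.40 at 72 h and 6.03 at 24 h, while the other rose by 4.53 at 72 h and by 4.23 at 24 h, with an interaction of 0.30 (adjusted p = 0.71). Of the genes with a smaller gap at 72 h, the call was lost for Cd36 without any 1 of 6 of the 12 arrays (adjusted p = 0.054 to 0.079) and with trend and robust moderation (0.059), for Cyp4a1 without any 1 of 4 of the 12 arrays (adjusted p = 0.059 to 0.066) and in a fit on the 12 arrays compared (0.056) and for Acot3 without any 1 of 8 of the 12 arrays (adjusted p = 0.052 to 0.08) and in a fit on the 12 arrays compared (0.062). Of the 10 measured CYP4 hydroxylases, the 2 Cyp4a genes were called lower and 0 higher, against 116 and 69 of all 14217 genes, with a median of -0.28.

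Few genes of fatty acid oxidation were called in the interaction, while 69 of all 14217 genes were called higher and 116 lower. All 25 measured genes of the carnitine shuttle, mitochondrial β-oxidation and ketogenesis rose at 72 h and 22 of them at 24 h, against 9.44% and 4.37% of all genes, with median changes of 1.96 and 1.95, and 1 was called higher in the interaction (Ucp3) and 1 lower (Eci1). Of 38 measured peroxisomal genes, 25 rose (65.8%) and 1 fell at 72 h, against 23 (60.5%) and 0 at 24 h, and none was called in the interaction (median 0.04, from -1.45 to 0.71). Some uncalled interactions were large. Ehhadh had -1.45 ± 0.37 (adjusted p = 0.078), with rises of 5.89 at 72 h and 7.34 at 24 h. Cpt1a of the carnitine shuttle had -1.05 ± 0.30 (adjusted p = 0.12), with rises of 2.36 and 3.41 in the same order. The largest uncalled positive value of the carnitine and β-oxidation list was 0.50 (Acads). Of 9 acyl-CoA thioesterases, 7 rose at each time and Acot3 alone was called. Of 20 genes for fatty acid uptake, binding and activation, 12 rose (60.0%) and 2 fell (10.0%) at 72 h, against 8 (40%) and 0 at 24 h, and Fabp3 and Lpl were called higher and Cd36 and Angptl4 lower.

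For 377 probe sets called at both times the 95% interval of the interaction lay within -0.5 to 0.5, so for these a larger difference between the times was outside the interval. Acot1, a cytosolic thioesterase that cleaves acyl-CoA, had the largest rise of them, with 12.93, 12.93 and 12.90 in EMD cultures and 4.06, 4.31 and 4.21 in DMSO cultures at 72 h, against 12.03, 12.31 and 12.29 in EMD cultures and 3.57, 3.45 and 3.51 in DMSO cultures at 24 h. EMD minus DMSO was 8.72 ± 0.09 at 72 h (adjusted p = 2.1e-19), against 8.70 ± 0.09 at 24 h (adjusted p = 2.2e-19), and the interaction was 0.02 (95% interval -0.25 to 0.30). All its DMSO arrays lay under the median of all values (5.08), near the background, so whether the true gap was equal at both times is not settled by these values. Slc22a5, the carnitine transporter OCTN2, rose by 2.80 ± 0.10 at 72 h (adjusted p = 5.5e-12), against 2.76 ± 0.10 at 24 h (adjusted p = 6.1e-12), and both arms were higher at 72 h than at 24 h, 1.38 ± 0.10 in EMD cultures (adjusted p = 2.3e-07), against 1.34 ± 0.10 in DMSO cultures (adjusted p = 1.5e-07). Crat, the carnitine acetyltransferase, had an interaction of 0.09 (95% interval -0.30 to 0.48), with values of 11.17, 11.27 and 11.08 in EMD cultures and 7.99, 8.17 and 8.0 in DMSO cultures at 72 h, against 10.02, 10.52 and 10.32 in EMD cultures and 7.31, 7.13 and 7.32 in DMSO cultures at 24 h. Nudt7, which hydrolyses peroxisomal CoA, rose by 3.27 and 3.16, Acat1, a mitochondrial thiolase, by 3.08 and 2.98, and Acot2, the mitochondrial thioesterase, by 2.25 and 2.31, each at 72 h and 24 h in that order. Gpd2, the mitochondrial glycerol phosphate dehydrogenase, rose by 2.58 at 72 h and 2.55 at 24 h. Gk, the glycerol kinase, rose by 3.87 at 72 h and 3.85 at 24 h in its brighter probe set, but a second one rose by 2.58 at 72 h and 0.94 at 24 h and was called in the interaction (1.63, adjusted p = 0.00095). Other probe sets gave interactions of 0.28 for Acat1, of -0.02 and -0.67 for Acot2 (the second with rises of 2.78 at 72 h and 3.45 at 24 h) and of 0.65 for Gpd2 (2.95 and 2.30 in the same order). None of these was called, but the estimates of -0.67 and 0.65 lie outside -0.5 to 0.5.

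Falls of like size at both times were smaller than these rises. Xbp1, a transcription factor of the unfolded protein response, read 10.13, 10.01 and 10.12 in EMD cultures and 10.88, 10.90 and 11.06 in DMSO cultures at 72 h, against 10.29, 10.01 and 10.21 in EMD cultures and 10.93, 11.03 and 10.91 in DMSO cultures at 24 h. All EMD arrays lay below all DMSO arrays, and the change was -0.86 at 72 h, against -0.78 at 24 h, with an interaction of -0.08 (95% interval -0.33 to 0.18). Tnk2, a non-receptor tyrosine kinase, fell by 0.86 at 72 h and 0.96 at 24 h, Sesn1, a stress-induced sestrin, by 0.84 and 0.90, and Odad4, a protein of the ciliary outer dynein arm, by 0.98 and 0.89 in the same order. The receptors themselves were not called in the interaction. Ppara had values of 6.55, 6.49 and 6.32 in EMD cultures and 5.67, 5.51 and 6.57 in DMSO cultures at 72 h, against 6.59, 6.63 and 6.29 in EMD cultures and 6.27, 6.69 and 6.60 in DMSO cultures at 24 h. The EMD arrays at 72 h overlapped the DMSO ones through DMSO replicate 3, and the interaction was 0.55 ± 0.28 (adjusted p = 0.44). Pparg had 0.21 ± 0.34 (adjusted p = 0.86) and Ppard 0.15 ± 0.22 (adjusted p = 0.84), with intervals of -0.51 to 0.93 and -0.31 to 0.62. None of the 18 measured nuclear receptor and coregulator genes was called, and their median was 0.20.

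The lowest interaction of all was that of Cyp2c11, the P450 that marks male rat liver. It had values of 8.15, 8.14 and 9.36 in EMD cultures and 11.56, 12.53 and 12.24 in DMSO cultures at 72 h, against 10.64, 10.33 and 11.08 in EMD cultures and 11.16, 11.10 and 11.01 in DMSO cultures at 24 h. The groups overlapped at 24 h, and at 72 h the EMD arrays were lower and the DMSO arrays higher than at 24 h. The change over time was -2.13 ± 0.35 in EMD cultures (adjusted p = 0.00071), against 1.02 ± 0.35 in DMSO cultures (adjusted p = 0.05), and the interaction was -3.15 ± 0.50 (adjusted p = 0.0064). Hsd11b1, which regenerates active glucocorticoid inside the cell, stood at 10.14, 9.59 and 10.24 in EMD cultures and 11.85, 12.39 and 12.50 in DMSO cultures at 72 h, against 11.59, 11.74 and 12.09 in EMD cultures and 11.84, 12.04 and 12.45 in DMSO cultures at 24 h. Only the EMD arrays at 72 h were apart, and the interaction was -1.95 ± 0.30 (adjusted p = 0.0047). Ass1, the urea cycle enzyme that makes argininosuccinate, fell at both times, -3.06 ± 0.22 at 72 h (adjusted p = 3.7e-08), against -1.48 ± 0.22 at 24 h (adjusted p = 0.00028), and was the 1 of 12 urea cycle and ammonia genes called in the interaction. Its values were 9.40, 9.72 and 9.36 in EMD cultures and 11.97, 12.85 and 12.84 in DMSO cultures at 72 h, against 11.26, 10.76 and 11.03 in EMD cultures and 12.37, 12.63 and 12.49 in DMSO cultures at 24 h, and the DMSO groups overlapped between the times. Slc2a2, the glucose transporter GLUT2, also fell at both times and by more at 72 h, with an interaction of -0.92 ± 0.21 (adjusted p = 0.042), with differences of -2.09 at 72 h and -1.17 at 24 h.

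Lect2, a secreted hepatokine and chemotactic factor, read 9.46, 9.50 and 9.29 in EMD cultures and 11.67, 12.01 and 11.90 in DMSO cultures at 72 h, against 12.16, 11.76 and 11.98 in EMD cultures and 12.56, 12.65 and 12.48 in DMSO cultures at 24 h. The EMD arrays were lower than the DMSO arrays without overlap at both times and by more at 72 h, with an interaction of -1.85 ± 0.23 (adjusted p = 0.0012), and its other probe set gave -1.75 (adjusted p = 0.0067). A2m, α2-macroglobulin, an acute phase protein of the rat, had values of 11.85, 11.04 and 11.49 in EMD cultures and 13.35, 13.01 and 13.45 in DMSO cultures at 72 h, against 13.75, 13.66 and 13.73 in EMD cultures and 13.87, 13.97 and 13.99 in DMSO cultures at 24 h. The EMD arrays lay just below the DMSO arrays at 24 h and well below them at 72 h, for an interaction of -1.58 ± 0.26 (adjusted p = 0.0073). Itih4, an inter-α-trypsin inhibitor chain of the acute phase, had -1.71 ± 0.29 (adjusted p = 0.0093), with differences of -1.95 at 72 h and -0.23 at 24 h. Of the 46 measured acute phase, complement and coagulation genes these 2 were called lower and 0 higher, and the median was -0.35, with 20 that fell (43.5%) and 1 that rose (2.17%) at 72 h, against 4 (8.70%) and 0 at 24 h. Of all 14217 genes, 116 were called lower and 69 higher in the interaction, and 13% fell at 72 h and 2.86% at 24 h.

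Among 28 plasma carriers and apolipoproteins, 1 was called higher (Serpina7) and 4 lower, against 69 and 116 of all 14217 genes. At 72 h 11 fell (39.3%) and 3 rose (10.7%), against 2 and 2 at 24 h (7.14% each). Over all genes 13% fell and 9.44% rose at 72 h, against 2.86% and 4.37% at 24 h, so the rises at 72 h lay near that share. Apoa5, which lowers plasma triglycerides, had -1.18 ± 0.25 (adjusted p = 0.032), with differences of -2.10 at 72 h and -0.91 at 24 h. Apoc4 had -1.22 ± 0.24 (adjusted p = 0.021), with differences of -1.72 at 72 h and -0.50 at 24 h. For Serpina1, α1-antitrypsin, the values were 13.01, 12.55 and 12.51 in EMD cultures and 13.63, 13.67 and 13.72 in DMSO cultures at 72 h, against 13.85, 13.60 and 13.71 in EMD cultures and 13.79, 13.72 and 13.66 in DMSO cultures at 24 h, and the EMD arrays at 72 h were the lowest of the 12, with an interaction of -0.98 ± 0.22 (adjusted p = 0.042). Apoa1, the main protein of HDL, had an interaction of -0.59 ± 0.13 (adjusted p = 0.046). The calls were lost for Ass1 without any 1 of 5 of the 12 arrays (adjusted p = 0.052 to 0.069) and for Slc2a2 without any 1 of 9 of the 12 arrays (adjusted p = 0.061 to 0.12), in a fit on the 12 arrays compared (0.083) and after cyclic loess (0.062). They were also lost for Apoa5 without any 1 of 8 of the 12 arrays (adjusted p = 0.051 to 0.097) and in a fit on the 12 arrays compared (0.054), for Apoc4 without any 1 of 4 of the 12 arrays (adjusted p = 0.05 to 0.069), for Serpina1 without any 1 of 11 of the 12 arrays (adjusted p = 0.055 to 0.12) and after cyclic loess (0.07) and for Apoa1 without any 1 of 11 of the 12 arrays (adjusted p = 0.061 to 0.13), in a fit on the 12 arrays compared (0.066) and after cyclic loess (0.052). The 11 hepatocyte markers, which include Serpina1 and Apoa1, had a median of 0.0, with interactions from -0.98 to 2.04. Of the 11, 4 rose and 4 fell at 72 h (36.4% each), against 1 and 1 at 24 h (9.09% each), so the median covers changes in both directions. Their mean level over the list was 11.93 to 11.94 in EMD arrays and 11.62 to 12.03 in DMSO arrays at 72 h, against 12.14 to 12.19 in both at 24 h.

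Il1r2, the decoy receptor that captures interleukin-1, had the largest fall with EMD among the named genes, with values of 3.41, 3.61 and 3.73 in EMD cultures and 7.81, 8.63 and 9.10 in DMSO cultures at 72 h, against 7.99, 7.96 and 7.50 in EMD cultures and 9.09, 9.91 and 10.22 in DMSO cultures at 24 h. The EMD arrays at 72 h were near the bottom of the scale, and the groups did not overlap at either time. It fell by 4.93 at 72 h and by 1.93 at 24 h, and the interaction was -3.0 ± 0.45 (adjusted p = 0.0045). Of the 30 interleukin-1 receptors, chemokines and NF-κB response genes, Cxcl9 was called higher and Il1r2 lower, with a median of -0.31, and 9 fell (30.0%) and 2 rose (6.67%) at 72 h, against 4 (13.3%) and 1 (3.33%) at 24 h. Of all 14217 genes, 69 were called higher and 116 lower in the interaction. Of the same genes, 13% fell and 9.44% rose at 72 h, against 2.86% and 4.37% at 24 h. The array means over the 14 measured macrophage markers were 4.95 to 5.15 in EMD and 5.27 to 5.53 in DMSO cultures at 72 h, without overlap, against 5.37 to 5.66 and 5.46 to 6.09 in the same order at 24 h. None of the 14 was called in the interaction (median -0.07), and 2 fell at 72 h (14.3%) and 1 at 24 h (7.14%), against 13% and 2.86% of all genes. Ptprc was near 4 in all groups, while Cd68 was at 6.53 with EMD and 6.84 with DMSO at 72 h, against 8.03 and 8.55 in the same order at 24 h. The part of these cells in the fall of Il1r2 was not tested.

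Cytoskeleton, matrix signalling and mesenchymal genes had the lowest median of all lists, -0.55 over 47 measured genes, with 3 positive interactions among them. Of the 47, 4 were called lower and 0 higher, and 27 fell (57.4%) and 1 rose (2.13%) at 72 h, against 8 (17%) and 2 (4.26%) at 24 h. Of all 14217 genes, 116 were called lower and 69 higher. Falls were more frequent at 72 h over all genes too (13%, against 2.86% at 24 h). Tgfb2, the growth factor TGF-β2, had values of 7.30, 6.61 and 6.62 in EMD cultures and 8.53, 8.22 and 7.36 in DMSO cultures at 72 h, against 7.52, 6.85 and 7.86 in EMD cultures and 7.03, 6.40 and 5.46 in DMSO cultures at 24 h. The ranges of the groups were wide, and the DMSO arrays were higher at 72 h than at 24 h without overlap. Its change over time was -0.56 ± 0.37 in EMD cultures (adjusted p = 0.37), against 1.74 ± 0.37 in DMSO cultures (adjusted p = 0.0034). The interaction was -2.31 ± 0.52 (adjusted p = 0.046), and the second probe set gave -1.32 (adjusted p = 0.13). Ccn1, a matrix protein induced when cells spread, read 8.19, 7.49 and 7.85 in EMD cultures and 9.60, 9.31 and 9.05 in DMSO cultures at 72 h, against 7.31, 6.63 and 7.32 in EMD cultures and 7.34, 6.97 and 7.14 in DMSO cultures at 24 h. Both arms overlapped at 24 h and were higher at 72 h, with the DMSO arrays above the EMD arrays, and the interaction was -1.41 ± 0.32 (adjusted p = 0.047).

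Tubb2a, a β-tubulin, had -0.82 ± 0.17 (adjusted p = 0.028), with differences of -1.12 at 72 h and -0.30 at 24 h. Tpm3, a tropomyosin, had -0.60 ± 0.14 (adjusted p = 0.046), with differences of -0.80 at 72 h and -0.20 at 24 h, and of its 11 other probe sets 3 were called, with -0.67 (adjusted p = 0.015), -0.62 (adjusted p = 0.01) and -0.59 (adjusted p = 0.049), while all 11 lay between -0.72 and 0.13. The 4 calls were lost in part of the alternatives, for Tgfb2 without any 1 of 8 of the 12 arrays (adjusted p = 0.08 to 0.13), in a fit on the 12 arrays compared (0.095), after cyclic loess (0.058) and with trend and robust moderation (0.09), for Ccn1 without any 1 of 9 of the 12 arrays (adjusted p = 0.051 to 0.14), in a fit on the 12 arrays compared (0.061), after cyclic loess (0.065) and with trend and robust moderation (0.053), for Tubb2a without any 1 of 9 of the 12 arrays (adjusted p = 0.051 to 0.094) and for Tpm3 without any 1 of 10 of the 12 arrays (adjusted p = 0.065 to 0.13), in a fit on the 12 arrays compared (0.093) and after cyclic loess (0.086). For β-actin, the array carries probe sets at both ends of the transcript. Their 3′ value minus their 5′ value, which grows as RNA is degraded or incompletely copied, was 0.819 to 0.894 in EMD arrays and 0.637 to 0.733 in DMSO arrays at 72 h, against 1.29 to 1.39 and 1.28 to 1.36 in the same order at 24 h. For GAPDH the same measure averaged 0.171 in EMD arrays and 0.168 in DMSO arrays at 72 h, against 0.266 and 0.289 in the same order at 24 h, so it moved with time and the groups overlapped within each time. For hexokinase it averaged 1.50 in EMD arrays and 1.57 in DMSO arrays at 72 h with overlap, against 1.63 and 1.40 at 24 h, where all EMD arrays (1.55 to 1.68) lay above all DMSO arrays (1.27 to 1.51). The 3 measures thus did not move together, and their part in these results was not tested. The 16 stellate cell and fibroblast markers had no called interaction, a median of -0.02 and array means of 4.12 to 4.42 in all 4 groups.

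Other genes with the largest lower interactions also rose over time in vehicle cultures. Lhfpl6, a tetraspan membrane protein, stood at 7.10, 6.44 and 6.25 in EMD cultures and 9.07, 9.02 and 8.02 in DMSO cultures at 72 h, against 4.23, 4.09 and 4.70 in EMD cultures and 4.02, 4.44 and 3.91 in DMSO cultures at 24 h. It lay near the bottom of the scale in both arms at 24 h and was higher at 72 h in both, more so with DMSO, for an interaction of -2.32 ± 0.52 (adjusted p = 0.041). A second, dimmer probe set did not show it (0.27, adjusted p = 0.45). Pdlim2, an actin-associated LIM protein, had -1.72 ± 0.30 (adjusted p = 0.011), with differences of -1.06 at 72 h and 0.66 at 24 h, and changed over time by -0.26 ± 0.21 in EMD cultures (adjusted p = 0.5), against 1.46 ± 0.21 in DMSO cultures (adjusted p = 0.00017). Zc2hc1a, a zinc finger protein, had -1.96 ± 0.43 (adjusted p = 0.041), with differences of -1.59 at 72 h and 0.37 at 24 h, against -0.40 (adjusted p = 0.49) in its other probe set. The calls were lost for Lhfpl6 without any 1 of 10 of the 12 arrays (adjusted p = 0.054 to 0.12) and with trend and robust moderation (0.081) and for Zc2hc1a without any 1 of 8 of the 12 arrays (adjusted p = 0.071 to 0.11), in a fit on the 12 arrays compared (0.056) and with trend and robust moderation (0.069).

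Of the 1319 probe sets called at both times, 5 changed direction, and these included 4 named genes. St14, the membrane protease matriptase, had values of 7.12, 7.07 and 7.12 in EMD cultures and 8.30, 8.56 and 7.44 in DMSO cultures at 72 h, against 7.19, 6.96 and 7.38 in EMD cultures and 6.46, 6.15 and 6.33 in DMSO cultures at 24 h. The EMD arrays were alike at both times, while the DMSO arrays were below them at 24 h and above them at 72 h. Its change was -1.0 ± 0.22 at 72 h (adjusted p = 0.0035), against 0.86 ± 0.22 at 24 h (adjusted p = 0.025), and the interaction was -1.86 ± 0.31 (adjusted p = 0.0081). Ifrd1, an interferon-related regulator, changed by -0.46 ± 0.09 at 72 h (adjusted p = 0.0016), against 0.43 ± 0.09 at 24 h (adjusted p = 0.0078), for an interaction of -0.89 ± 0.13 (adjusted p = 0.0035). Values were 10.58, 10.69 and 10.73 in EMD cultures and 11.03, 11.16 and 11.19 in DMSO cultures at 72 h, against 10.88, 10.90 and 10.96 in EMD cultures and 10.67, 10.40 and 10.39 in DMSO cultures at 24 h. Phf6, a PHD finger protein of chromatin, had -0.66 ± 0.12 (adjusted p = 0.015), with differences of -0.31 at 72 h and 0.34 at 24 h, and its other probe set gave -0.27 (adjusted p = 0.70). The reverse order was seen for Hsf4, a heat shock transcription factor, which had 0.74 ± 0.15 (adjusted p = 0.028), with differences of 0.35 at 72 h and -0.39 at 24 h. The call for Hsf4 was lost without any 1 of 9 of the 12 arrays (adjusted p = 0.052 to 0.084).

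In the remaining lists few genes or none were called in the interaction, while 69 of all 14217 genes were called higher and 116 lower. Amino acid catabolism (35 genes, median -0.13), bile acid synthesis and transporters (24, -0.10), cell cycle and DNA replication (39, 0.02), ER stress and the integrated stress response (29, -0.19), the circadian clock (17, 0.19) and hepatokines, IGF axis and hormone receptors (27, 0.02) had 0 called. The 27 conjugation enzymes had 1 called higher, Sult1c3, and a median of -0.03. Glycerol channels and the glucose fuel switch had Aqp3 higher and Pdk4 and Slc2a2 lower among 26 genes. Of 16 adipocyte genes, Lpl was called higher and Cd36 lower, and the median was 0.15. Endothelial and cholangiocyte markers (13 genes each) had 0 called, with medians of 0.13 and -0.11.

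**Figure D4:**
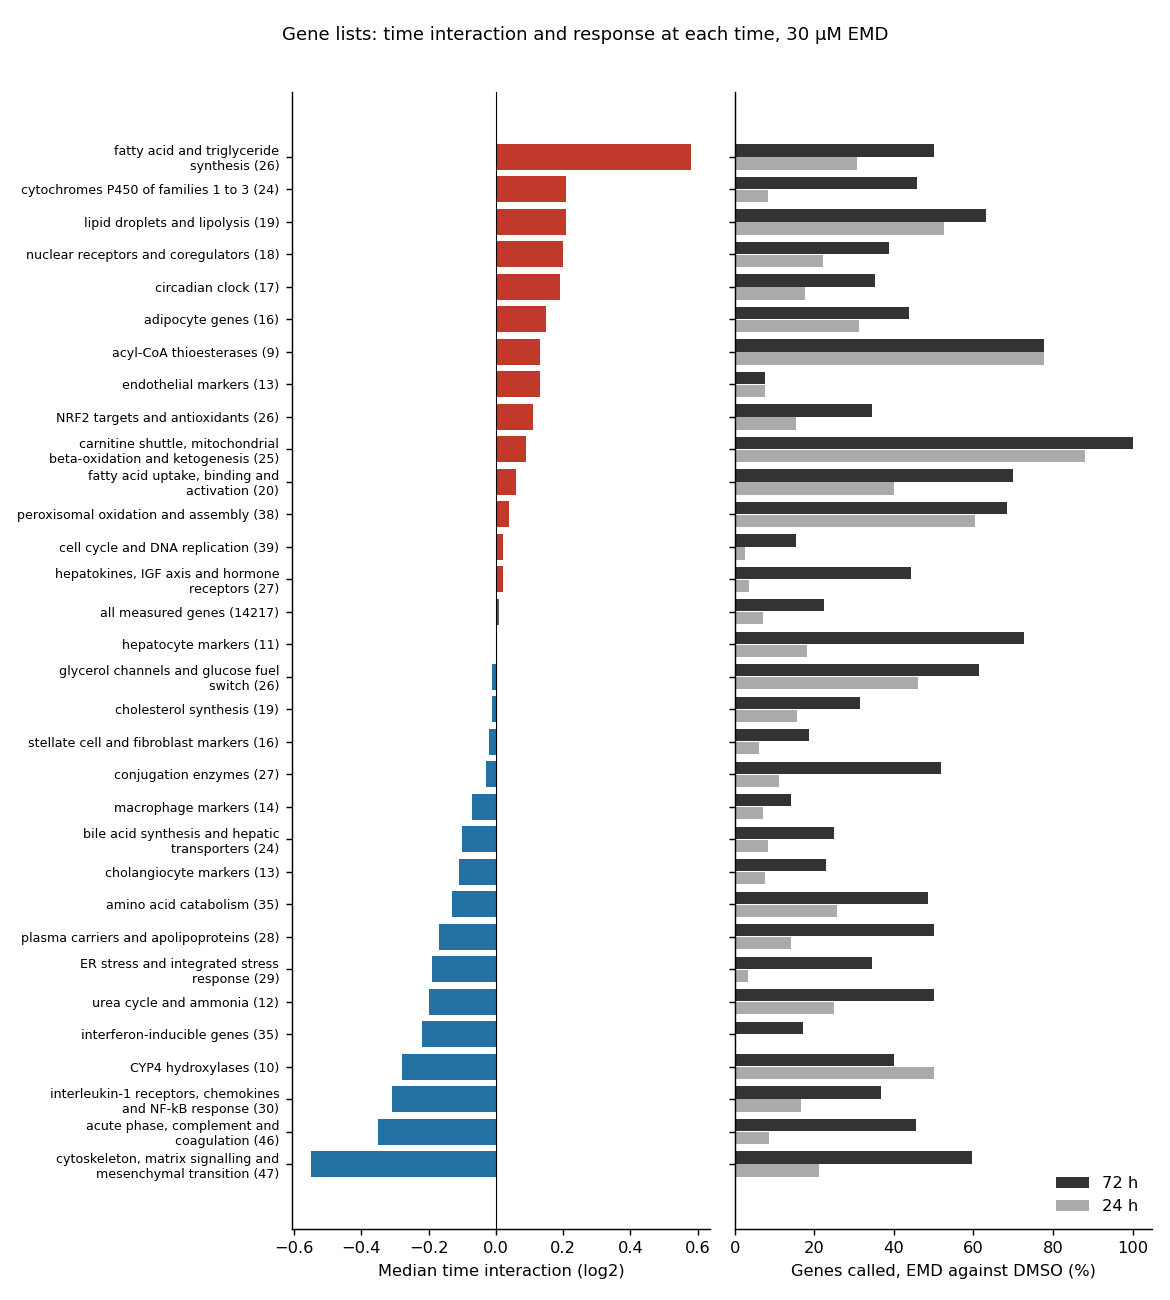
Median time interaction (log2, left) of each gene list and the percentage of its measured genes called in EMD against DMSO at 72 h and at 24 h (right), with the number of measured genes in brackets. Fatty acid and triglyceride synthesis lies highest (0.58) and the cytoskeleton list lowest (-0.55), against 0.01 for all 14217 genes.

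The time interaction was set against that of the higher dose, computed with the same DMSO arrays, which are therefore common to both. At 100 µM, 215 probe sets were called in it. The difference between the doses, which does not contain the DMSO arrays, was called for 2 probe sets (0.00644%), with 1804 at an unadjusted p under 0.05, and had a median 95% interval of ± 0.346. The first of the 2 was Cd302, a C-type lectin receptor, with an interaction of -0.16 ± 0.21 at 30 µM and -1.69 ± 0.21 at 100 µM, a difference of 1.54 ± 0.21 (adjusted p = 0.03). Cd302 was at 9.95, 10.08 and 9.89 with 30 µM, 8.42, 8.14 and 8.05 with 100 µM and 10.32, 10.82 and 10.86 with DMSO at 72 h, against 9.82, 9.68 and 10.02, 9.85, 9.35 and 9.63, and 10.34, 10.51 and 10.29 in the same order at 24 h. At 72 h the 100 µM arrays were the lowest of all, and the 30 µM arrays lay between them and vehicle.

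The other was 1382914_at, a probe set with no gene symbol that lies outside the naming rule and was chosen after its values were seen. It read 6.39, 7.08 and 6.90 with 30 µM, 5.23, 4.48 and 5.06 with 100 µM and 3.70, 3.65 and 3.88 with DMSO at 72 h, and all 9 arrays at 24 h lay between 3.71 and 4.12. Its interaction was 2.89 ± 0.25 at 30 µM and 0.93 ± 0.25 at 100 µM, a difference of 1.96 ± 0.25 (adjusted p = 0.015). Among named genes the 2 doses had values such as 4.39 ± 0.59 at 30 µM and 3.53 ± 0.59 at 100 µM for Aqp3, 3.23 ± 0.57 at 30 µM and 4.69 ± 0.57 at 100 µM for Scd2, -2.48 ± 0.31 at 30 µM and -2.82 ± 0.31 at 100 µM for Cyp4a3 and -3.0 ± 0.45 at 30 µM and -3.08 ± 0.45 at 100 µM for Il1r2, and none of these differences was called. For Lpl they were 1.30 ± 0.16 at 30 µM and 0.43 ± 0.16 at 100 µM, a difference of 0.86 (adjusted p = 0.21). Over the 292 probe sets called at 30 µM, the median size of the interaction was 0.976 at 30 µM and 0.751 at 100 µM. Of the 292, 80 had an unadjusted p under 0.05 for the difference between the doses, against 5.81% of all probe sets. The 292 were picked by their 30 µM values, which also enter that difference. With EMD 100 µM 72 h replicate 1 left out, 179 probe sets were called for the difference between the doses, and in a fit on the EMD arrays alone 0 were. That array was the farthest of all from the others of its group, with a root mean square distance of 0.328, against 0.187 to 0.3 for the other 17 arrays, and its weight was the lowest (0.4, against 0.63 to 2.4).

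**Figure D5:**
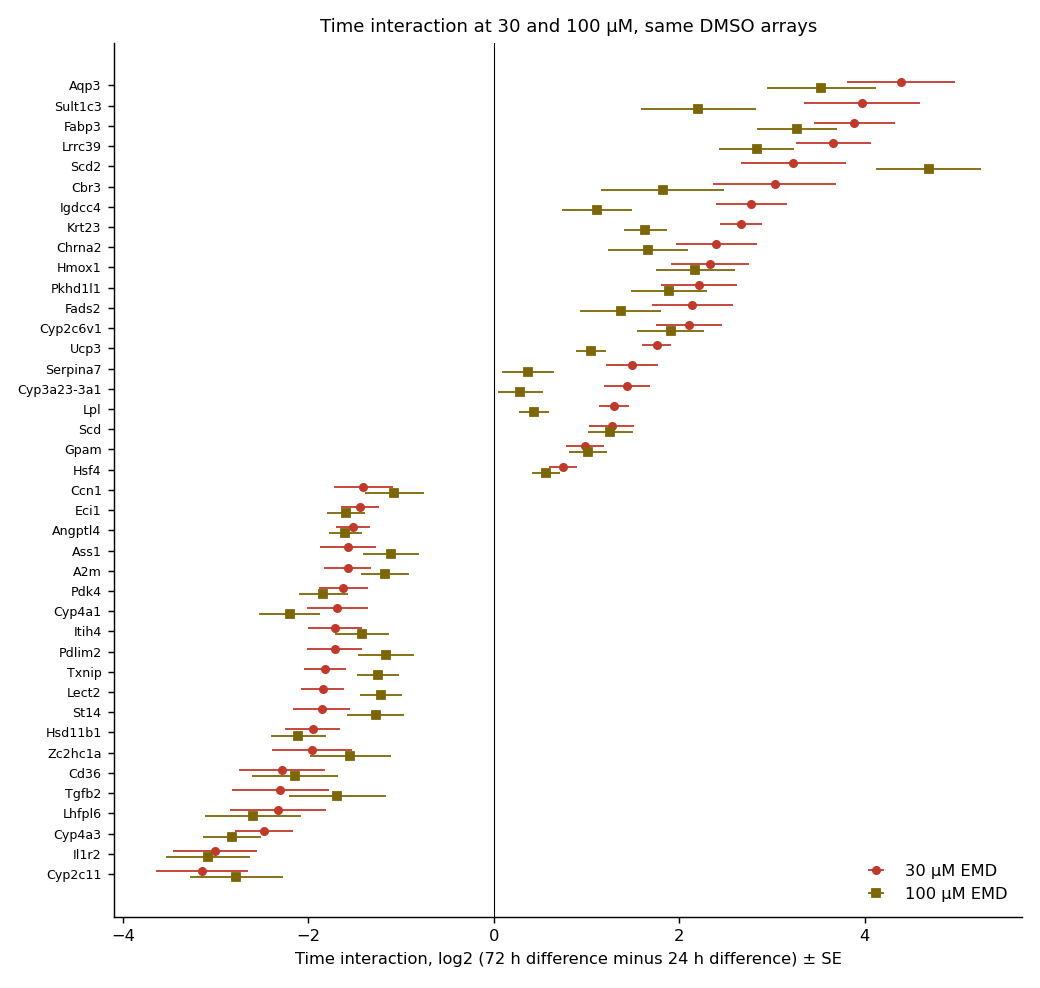
Time interaction (log2, x axis, ± SE of the fit) of the 20 called named genes with the largest positive and the 20 with the largest negative values, at 30 µM (circles) and 100 µM (squares), both against the same DMSO arrays. Aqp3 lies at 4.39 and 3.53, Scd2 at 3.23 and 4.69 and Cyp2c11 at -3.15 and -2.78.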

How the data were processed

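Total RNA of cultured hepatocytes was hybridised to Affymetrix rat genome arrays. The deposited values are on the log2 scale and were made by the authors with the RMA algorithm, which corrects background, equalises the arrays and summarises the probes of each probe set. The RMA version was not given in the sources used here. RMA gives no detection calls and shrinks differences of dim probe sets. All 18 columns carried a sample.

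Of 31099 probe sets, 57 controls were left out. Platform annotation gave 1 symbol to 20826 probe sets (14217 genes), several to 436 and none to 9780, and a gene in a list was read through its probe set with the highest mean. All 18 arrays were fitted as 6 groups with limma 3.58.1 in R 4.3.3, with Benjamini-Hochberg adjustment over 31042 probe sets. The script was tested on simulated data.

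Named genes were the up to 12 largest called interactions in each direction, up to 4 called members of each of 31 lists (715 of 803 listed genes measured), the 3 PPARs, the 8 largest rises and 4 largest falls called at both times with an interaction interval within -0.5 to 0.5, genes of opposite direction and those called between doses. Members and lists were chosen with earlier results of these data known.

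The methods say that the cells of each animal received every treatment, but the labels do not tie arrays to animals, so the spread behind each p-value is that among these arrays and may in part be technical. Alternatives were a replicate block, array weights, a fit on the arrays compared alone, cyclic loess, equal array medians, a filter on dim probe sets, trend and robust moderation, and each array left out.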

Additional observations from a re-analysis of the deposited data

Results flagged for a closer look

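The effect of 30 µM EMD under the same contrast differed between 72 h and 24 h for 292 probe sets by the interaction itself. The 4 named genes called at both times in opposite directions had interactions of -1.86 for St14 (-1.0 at 72 h, against 0.86 at 24 h), -0.89 for Ifrd1 (-0.46 and 0.43 in the same order), -0.66 for Phf6 (-0.31 and 0.34) and 0.74 for Hsf4 (0.35 and -0.39). The time course of the C-type lectin receptor Cd302 differed between the doses by 1.54 (-0.16 at 30 µM and -1.69 at 100 µM).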

How the results depend on the processing

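The 51 named genes that were called kept the direction of the interaction in each alternative in which they were tested, and none of the 51 moved by over 1.5 times. Most were picked by their values in the main fit, and the alternatives reuse its arrays, so this is not independent support. Of the 51, 27 kept the call in each of the 7 processing alternatives in which they were tested and with each of the 12 arrays left out, and 34 in the 7 alone. Lpl, 1 of the 27, was too dim to be tested with dim probe sets left out, which covered 50 of the 51. With the replicate block, 924 probe sets were called in the interaction (321 higher, 603 lower, 332 of at least 2-fold), all 292 of the main count among them. Same-numbered arrays of different groups, of the same or of different times, deviated from their group means together in 17 of 18 pairs (correlation over 0.1, median 0.33, lowest 0.01). The median for different numbers was -0.17, but deviations within a group cancel out, so this value is in part set by the first. Among groups of the same time, both doses included, 31 of 36 comparisons matched an array best with its own number. This is a hint from the data, as the labels do not tie a number to an animal. With array weights, 641 were called (240 higher, 401 lower, 263 of at least 2-fold). Leaving out each array gave 123 to 475 called, 55 to 163 higher, 64 to 312 lower and 77 to 254 of at least 2-fold. The difference between the doses was called for 0 probe sets in a fit on the arrays compared, 1 with the replicate block, 45 with array weights and 0 to 179 with 1 array left out. The causes of these shifts were not tested. With 3 arrays a group, the median 95% interval of an interaction was ± 0.346 before adjustment over the probe sets. A call needed more than that. The smallest called interaction was 0.448 in size, and that of Ehhadh (-1.45) was not called. Time differences well over 0.346 may thus have been missed.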

Other observations

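The genes here were chosen after their values were seen. Each of 2 sterol exporters had a called probe set with a larger EMD minus DMSO difference at 72 h. Abcg1 had an interaction of 1.59 ± 0.30 (adjusted p = 0.016) in 1 of 3 probe sets, the others giving 0.53 and 0.30 without a call. Abca1, the exporter that loads HDL, gave 0.68 to 1.17 over 4 probe sets, of which 1 was called (1.15, adjusted p = 0.03). Oat, the ornithine aminotransferase, had an interaction of 1.86 ± 0.41 (adjusted p = 0.04), and Me1, the malic enzyme that supplies NADPH, gave 1.13 (adjusted p = 0.026) and 0.98 (adjusted p = 0.15) in its 2 probe sets. Hadh, an enzyme of mitochondrial β-oxidation, gave 0.81 (adjusted p = 0.038) in 1 probe set and -0.03 in the other.

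The G protein regulator Rgs2 had interactions of -1.69 (adjusted p = 0.0029) and -1.56 (adjusted p = 0.024) in its 2 probe sets, with differences of -1.85 and -1.47 at 72 h, against -0.16 and 0.09 at 24 h. Lower interactions were also called for the transcription factors Klf6 (-0.83 to -1.14 over 3 probe sets, 2 called), Jun (-0.54 to -0.71 over 3, 1 called), Ier2 (-0.96, adjusted p = 0.043) and Ets1 (-1.42, adjusted p = 0.021) and the vasoconstrictor peptide Edn1 (-1.68, adjusted p = 0.0093). These are single genes picked from those called, with no list behind them. Txnip and its arrestin-domain relative Arrdc4 both had lower interactions, -1.82 and -1.43 (adjusted p = 0.0012 and 0.012), but Txnip rose with EMD (1.67 at 72 h, against 3.49 at 24 h) and Arrdc4 fell (-2.31 at 72 h, against -0.88 at 24 h). Among genes that rose at both times, Vnn1, a pantetheinase and known PPARα target, rose by 2.82 at 72 h and 4.31 at 24 h (interaction -1.49, adjusted p = 0.031), and Creb3l3, a transcription factor of the liver, by 1.38 and 2.18 (interaction -0.80, adjusted p = 0.042).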
